A study of Medicago truncatula with 15 samples.

Results

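The comparison described here is whether losing *MtSOC1a* changed gene expression differently in leaves and in shoot apices of *Medicago truncatula*. It rests on 12 of the 15 RNA-seq libraries of the series, 3 in each of 4 groups: WT leaf, *Mtsoc1a* leaf, WT shoot apex and *Mtsoc1a* shoot apex, chosen by the tissue, genotype and age that their labels give. For each locus the value of interest was the log2 change of *Mtsoc1a* against WT in leaf minus the same log2 change in apex. A positive difference therefore means that the locus was relatively higher in mutant leaf, or relatively lower in mutant apex, and a negative difference means the reverse. The other 3 libraries, shoot apices of an 83-day-old triple mutant, have no leaf counterpart and entered only as an alternative.

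All 12 libraries came from 15-day-old plants of the R108 background. WT plants carried no genetic modification, and *Mtsoc1a* plants carried a *Tnt1* retrotransposon insertion in *MtSOC1a*, so the genotype is represented by 1 insertion line. The plants had 3 weeks of cold as germinated seed and then grew at 22 °C in days with 16 h of light, the inductive condition abbreviated VLD, and were sampled 4 h after dawn. A leaf library pooled 2 fully expanded trifoliate leaves from separate plants. An apex library pooled the upper stem and shoot apex of 3 plants. Replicates are labelled as biological, and no label says whether a leaf and an apex library shared plants. Leaf against apex is thus also mature organ against growing tip plus stem, and in such bulk samples fewer cells of a type cannot be told apart from less RNA per cell.

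SOC1 proteins are MADS-box transcription factors that, in Arabidopsis, collect signals from day length, cold and age and pass them to the genes that turn a vegetative meristem into a floral one. The day length signal starts in the leaf, where FT proteins are made, and acts at the shoot apex, where FT works with the bZIP factor FD to raise *SOC1*, *FUL* and *AP1*. Medicago has 3 *SOC1* genes, *MtSOC1a*, *MtSOC1b* and *MtSOC1c*. A leaf and an apex may hold different partners and targets for the same factor, which was not tested here.

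Estimated counts per library ran from 30574854 to 38896407. The leaf and apex libraries separated on the first principal component, which took 81.8% of the variance, and the library *Mtsoc1a* leaf 2 stood apart from the other leaf libraries on the second, which took 4.02%. Of 5 loci listed as apex markers, 4 (*MtLFY*, the *HDL* homolog, *WOX9* and another *WOX* locus) had 0 counts in all 6 leaf libraries and counts in both apex groups. The fifth, the *WOX* locus Medtr1g019130, had 35 to 122 counts per leaf library. The 24 photosynthesis loci summed to 4273 to 5154 CPM in WT leaf and 215 to 374 CPM in WT apex. The 9 listed floral genes summed to 46.5 to 62.0 CPM in WT leaf and 2.68 to 7.70 CPM in WT apex, and the largest share in leaf came from *MtAP3b*.

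*MtSOC1a* itself (Medtr7g075870, chromosome 7) was low in both mutant tissues, in accordance with the genotype labels. WT leaf libraries held 220, 203 and 181 counts and *Mtsoc1a* leaf libraries 10, 4 and 0. WT apex libraries held 698, 865 and 582 counts and *Mtsoc1a* apex libraries 47, 22 and 29. No mutant library reached a WT library of its tissue. The level fell by 5.38 on the log2 scale in leaf (SE 0.53, edgeR adjusted p = 0.0034) and by 4.39 in apex (SE 0.44, edgeR adjusted p = 0.0018). The difference between the tissues was -0.99, with a 95% interval of -2.49 to 0.52 (edgeR adjusted p = 0.709), so the loss of *MtSOC1a* transcript was not shown to differ between leaf and apex. It was also the 1 locus that was called in both tissues.

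Of 23024 loci tested, 14 had an *Mtsoc1a* effect that differed between leaf and apex at a Benjamini-Hochberg adjusted p of at most 0.05 and a difference of at least 2-fold, which is 0.0608% of loci. The difference was positive for 8 (0.0347%) and negative for 6 (0.0261%). The effect within leaf was called for 107 loci (0.465%), 66 higher (0.287%) and 41 lower (0.178%) in *Mtsoc1a*. In apex 18 loci were called (0.0782%), 9 higher (0.0391%) and 9 lower (0.0391%). By DESeq2 the split in apex was 103 higher and 63 lower. The leaf and apex comparisons share no library. Their calls had 1 locus in common, 0.935% of the leaf calls and 5.56% of the apex calls, and 0 loci were called in both tissues in opposite directions. Among the 107 leaf calls, 73 had the same sign in apex, with medians in apex of 0.07 for those higher in mutant leaf and -0.15 for those lower. Of the 18 apex calls, 11 had the same sign in leaf. Over all loci tested 52.4% had the same sign, and the leaf and apex changes had a Pearson r of 0.14 and a Spearman rho of 0.12 across 23024 loci, which are not independent replicates.

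**Figure D1:**
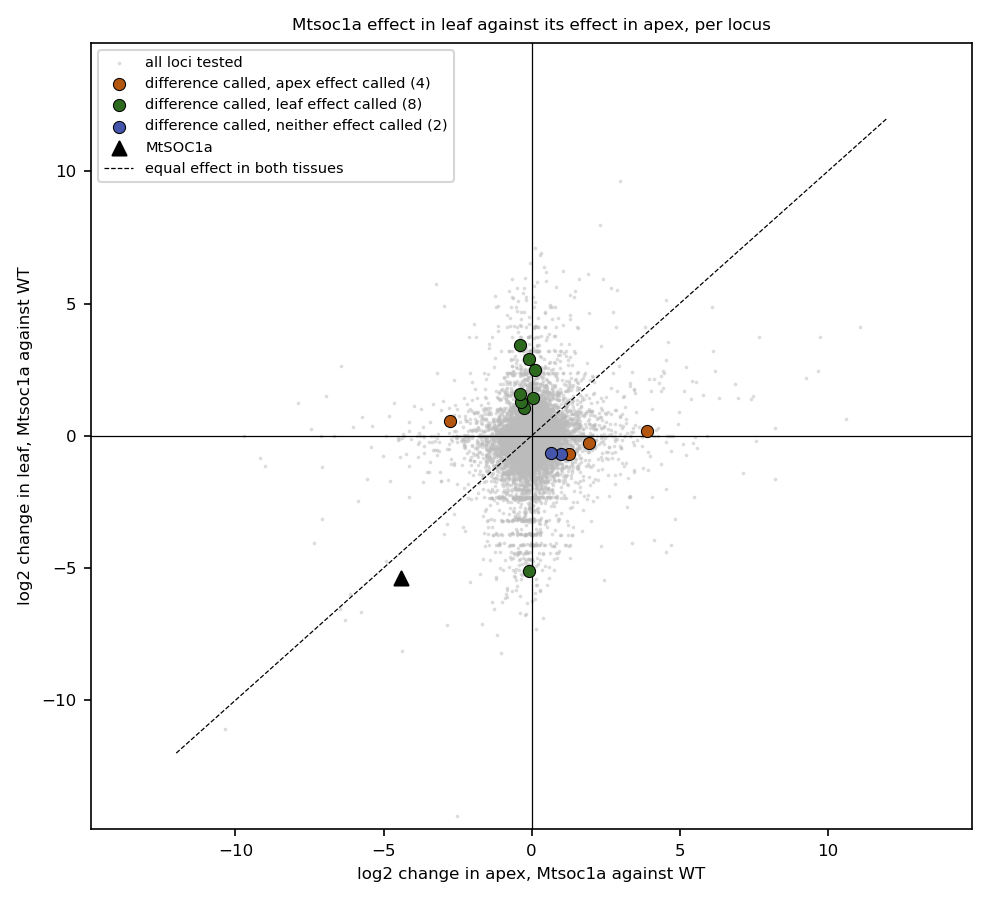
Each point is 1 locus, placed by its log2 change of *Mtsoc1a* against WT in apex (horizontal) and in leaf (vertical), with the dashed line where both are equal. Loci called for the difference lie near the vertical axis where the leaf effect was called (8, green), near the horizontal axis where the apex effect was called (4, orange) or between them (2, blue), and *MtSOC1a* (triangle) is low in both tissues.

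The number of called differences moved with single libraries and with the test. It was 39 without WT apex 2 and 1 without *Mtsoc1a* apex 2. It was 4 without WT apex 3, 8 without *Mtsoc1a* apex 3, and 7 without each of WT leaf 3, *Mtsoc1a* leaf 2, *Mtsoc1a* leaf 3 and *Mtsoc1a* apex 1. DESeq2 called 218 loci (0.947%), among them all 14. limma-voom called 0, with 1781 loci at an unadjusted p under 0.05 against 2027 (8.8%) by edgeR. Medtr6g028090 was called without each single library, Medtr6g034920 and Medtr7g102450 lost the call without *Mtsoc1a* apex 2, and Medtr1g015650 lost it without *Mtsoc1a* apex 2 and without WT leaf 3. Each of the other 10 loci lost the call without 4 to 11 of the 12 libraries, and none of the 14 changed direction.

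In 4 of the 14 loci the apex effect was called and the leaf effect was not. All 4 were higher in WT leaf than in WT apex. Medtr6g028090 (chromosome 6), a member of the carbohydrate metabolic process list, had the lowest p. Its WT apex libraries held 1.60, 1.11 and 1.56 CPM and its *Mtsoc1a* apex libraries 5.31, 4.80 and 6.28 CPM, while WT leaf held 79.5, 57.1 and 52.8 CPM and *Mtsoc1a* leaf 52.5, 50.3 and 52.3 CPM. The apex groups did not overlap, and the mutant leaf libraries lay at or just below the lowest WT leaf library. It rose 3.83-fold in apex (edgeR adjusted p = 0.0018) against a log2 change of -0.29 in leaf, a difference of -2.22 (SE 0.25, edgeR adjusted p = 0.011). Without each single library in turn the difference lay between -2.41 and -2.07. This list was drawn up from the apex libraries of this series, so the apex rise is no independent evidence about the list.

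Medtr6g034920 (chromosome 6) carried the largest rise in apex among these loci. Its level was 5.92, 6.30 and 4.62 CPM in WT apex and 43.5, 82.8 and 123 CPM in *Mtsoc1a* apex, where the libraries were spread widely but all lay above WT. Leaf libraries held 157, 137 and 134 CPM in WT and 170, 174 and 148 CPM in *Mtsoc1a*. The locus rose 14.8-fold in apex (edgeR adjusted p = 0.00103) and had a log2 change of 0.20 in leaf, with a difference of -3.69 (SE 0.41, edgeR adjusted p = 0.011). Without each single library in turn it lay between -3.99 and -3.29.

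Medtr3g479620 (chromosome 3) was the third locus of this kind that rose in mutant apex. It had 1.16, 0.953 and 0.915 CPM in WT apex and 2.46, 2.38 and 2.45 CPM in *Mtsoc1a* apex. In leaf it had 14.0, 15.7 and 21.1 CPM in WT and 10.9, 10.4 and 10.1 CPM in *Mtsoc1a*. Groups did not overlap in either tissue and lay in opposite orders. The rise in apex was 2.39-fold (edgeR adjusted p = 0.0414), the log2 change in leaf was -0.69 (edgeR adjusted p = 0.111), and the difference was -1.95 (SE 0.26, edgeR adjusted p = 0.0235).

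Medtr7g102450 (chromosome 7) went the other way, being abundant in leaf and lower in mutant apex. WT leaf held 246, 228 and 246 CPM and *Mtsoc1a* leaf 448, 244 and 364 CPM, so the leaf groups met at 244 to 246 CPM. WT apex held 72, 56 and 82 counts (1.31, 1.11 and 1.83 CPM) and *Mtsoc1a* apex 11, 6 and 13 counts (0.221, 0.128 and 0.272 CPM). It fell 6.69-fold in apex (edgeR adjusted p = 0.0102), with a log2 change of 0.55 in leaf (edgeR adjusted p = 0.275) and a difference of 3.29 (SE 0.40, edgeR adjusted p = 0.011).

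Because these 4 loci were leaf-biased in WT, the leaf markers in the apex libraries are given beside them. The 24 photosynthesis loci summed to 215 to 374 CPM in WT apex and 252 to 386 CPM in *Mtsoc1a* apex, ranges that overlapped. Medtr6g011870 alone made up 80.7% to 89.5% of that sum in apex. The other 23 loci summed to 38.0 to 72.1 CPM in WT apex and 36.2 to 50.7 CPM in *Mtsoc1a* apex, which also overlapped.

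**Figure D2:**
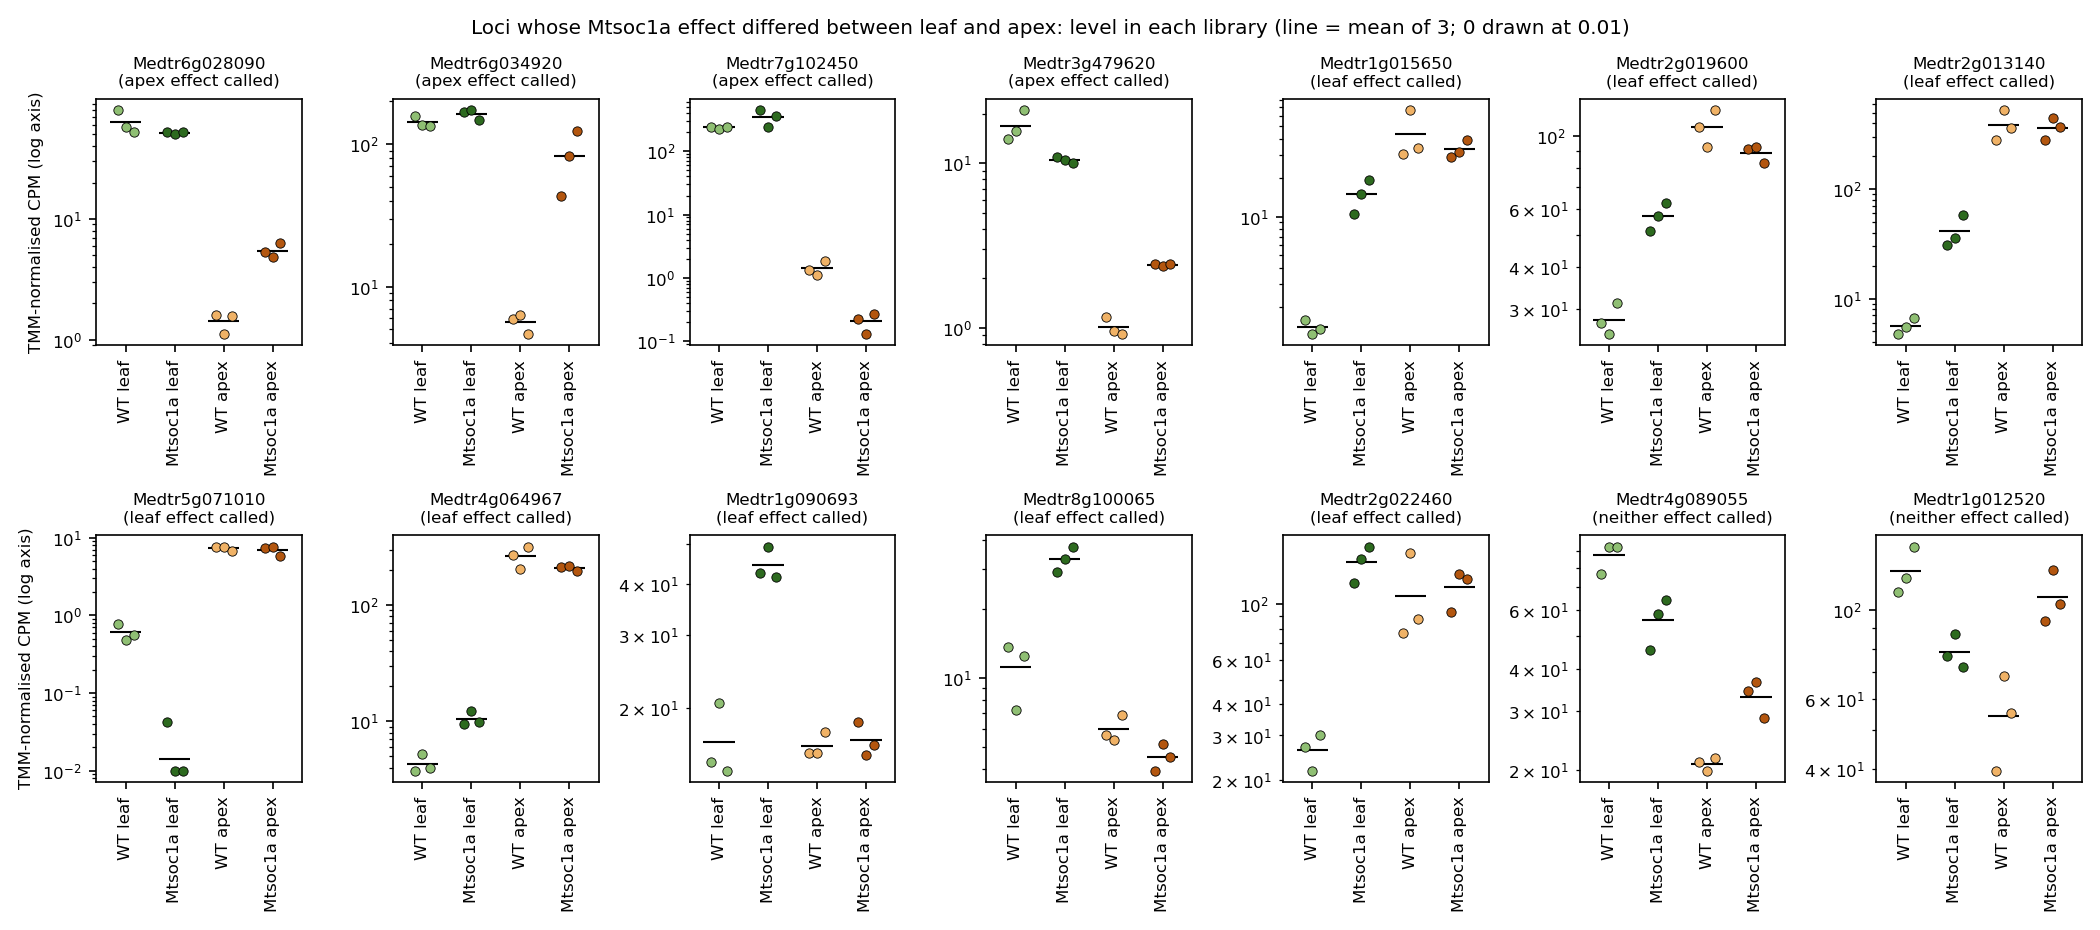
TMM-normalised CPM of the 14 called loci in each of the 12 libraries, on log axes that differ between panels, with a line at the mean of 3 and 0 drawn at 0.01. The first 4 panels show loci with a shift between the apex groups, the next 8 a shift between the leaf groups, and the last 2 shifts of opposite direction in both tissues, as with Medtr4g089055 at 76.7 to 92.5 CPM in WT leaf and 45.6 to 64.3 CPM in *Mtsoc1a* leaf.

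In 8 of the 14 loci the leaf effect was called and the apex effect was not, 7 of them higher in *Mtsoc1a* leaf. Medtr1g015650 (chromosome 1) rose most. WT leaf held 1.58, 1.23 and 1.34 CPM and *Mtsoc1a* leaf 10.5, 15.1 and 19.3 CPM, whereas apex held 30.7, 66.7 and 34.2 CPM in WT and 28.8, 31.8 and 39.4 CPM in *Mtsoc1a*. Mutant leaf thus lay between WT leaf and both apex groups, and the apex groups overlapped. The rise in leaf was 10.7-fold (edgeR adjusted p = 0.0034) and the difference 3.82 (SE 0.45, edgeR adjusted p = 0.011).

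Medtr2g013140 (chromosome 2) showed the same order of groups over a wider range. It had 4.72, 5.53 and 6.58 CPM in WT leaf and 31.0, 35.4 and 57.7 CPM in *Mtsoc1a* leaf. Its apex libraries held 280, 528 and 359 CPM in WT and 280, 443 and 368 CPM in *Mtsoc1a*. The leaf rise was 7.40-fold (edgeR adjusted p = 0.00397), the log2 change in apex was -0.10, and the difference was 2.98 (SE 0.40, edgeR adjusted p = 0.0259).

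Medtr4g064967 (chromosome 4) was the most abundant of the 14 per transcript length, at 1281 TPM in WT apex by the authors' group value against 10.2 TPM in WT leaf. In CPM it had 3.76, 5.22 and 3.98 in WT leaf and 9.45, 12.2 and 9.84 in *Mtsoc1a* leaf, with no overlap. Apex libraries held 268, 204 and 318 CPM in WT and 212, 216 and 194 CPM in *Mtsoc1a*. It rose 2.43-fold in leaf (edgeR adjusted p = 0.0085), and the difference was 1.62 (SE 0.25, edgeR adjusted p = 0.0436).

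Medtr2g019600 (chromosome 2) had the smallest standard error of the difference among the 14 loci. Its levels were 27.0, 25.1 and 31.1 CPM in WT leaf and 51.5, 57.1 and 62.5 CPM in *Mtsoc1a* leaf, against 106, 92.6 and 120 CPM in WT apex and 91.4, 92.6 and 83.0 CPM in *Mtsoc1a* apex. The leaf groups were separate, and the apex groups met at 92.6 CPM. The rise in leaf was 2.06-fold (edgeR adjusted p = 0.00529) and the difference 1.29 (SE 0.17, edgeR adjusted p = 0.0235).

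Medtr2g022460 (chromosome 2), which the study's annotation places under cell wall polysaccharide and hemicellulose metabolism, reached apex levels in mutant leaf by CPM. By the authors' TPM it did not, at 48.9 in *Mtsoc1a* leaf against 79.3 in WT apex and 86.2 in *Mtsoc1a* apex. WT leaf held 27.0, 21.7 and 30.2 CPM and *Mtsoc1a* leaf 121, 152 and 170 CPM, while apex held 76.6, 160 and 87.8 CPM in WT and 93.1, 132 and 126 CPM in *Mtsoc1a*. WT apex 2 was the highest apex library here, as it was for Medtr1g015650 and Medtr2g013140. The leaf rise was 5.63-fold (edgeR adjusted p = 0.00414) and the difference 2.38 (SE 0.37, edgeR adjusted p = 0.0487). Without WT apex 2 this difference was 1.99 and still called.

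The 5 loci just described were all lower in WT leaf than in WT apex, by log2 values of -1.94 to -6.12. Beside them, the summed level of the 5 apex markers was 1.62 to 4.49 CPM in WT leaf and 1.87 to 3.96 CPM in *Mtsoc1a* leaf, ranges that overlapped, with 4 of the 5 at 0 counts in every leaf library. The photosynthesis sum was 4273 to 5154 CPM in WT leaf and 7119 to 9695 CPM in *Mtsoc1a* leaf. However, edgeR called 0 of its 24 loci in leaf, with 4 at an unadjusted p under 0.05 (16.7%, against 12.7% of all loci). Medtr6g011870 alone made up 82.0% to 89.1% of that sum in leaf (log2 change 0.92, edgeR adjusted p = 0.0826; difference 0.73, edgeR adjusted p = 0.527), and the other 23 loci summed to 735 to 811 CPM in WT leaf and 836 to 1059 CPM in *Mtsoc1a* leaf. The part of these levels in the leaf results was not tested.

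By CPM the remaining loci that rose in leaf were not apex-biased in WT, whereas the authors' TPM placed leaf and apex differently. Medtr1g090693 (chromosome 1) had 14.7, 20.6 and 14.0 CPM in WT leaf and 42.5, 49.4 and 41.6 CPM in *Mtsoc1a* leaf, with 15.5, 15.5 and 17.5 CPM in WT apex and 18.5, 15.3 and 16.2 CPM in *Mtsoc1a* apex. By CPM mutant leaf was the only group that stood apart, as the other 9 libraries lay between 14.0 and 20.6 CPM. The authors' TPM was 2.16 in WT leaf, 5.39 in *Mtsoc1a* leaf, 4.28 in WT apex and 4.78 in *Mtsoc1a* apex. The rise in leaf was 2.70-fold (edgeR adjusted p = 0.0034) and the difference 1.39 (SE 0.21, edgeR adjusted p = 0.0436).

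Medtr8g100065 (chromosome 8) was higher in WT leaf than in WT apex by CPM, by a log2 value of 0.90, under the 2-fold threshold. The authors' TPM was 15.9 in WT leaf and 16.5 in WT apex. It had 13.7, 7.24 and 12.4 CPM in WT leaf and 28.9, 32.9 and 37.5 CPM in *Mtsoc1a* leaf, against 5.64, 5.36 and 6.90 CPM in WT apex and 3.93, 5.12 and 4.52 CPM in *Mtsoc1a* apex. Both tissues had separate groups, in opposite orders. The rise in leaf was 2.98-fold (edgeR adjusted p = 0.00801), the log2 change in apex was -0.40 (edgeR adjusted p = 0.757), and the difference was 1.97 (SE 0.31, edgeR adjusted p = 0.0436).

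Medtr5g071010 (chromosome 5) was the 1 locus of the 8 that was lower in mutant leaf. WT leaf libraries held 21, 11 and 12 counts and *Mtsoc1a* leaf libraries 1, 0 and 0, and apex libraries held 414, 385 and 305 counts in WT and 365, 359 and 282 in *Mtsoc1a*. The leaf groups were separate at low counts, and the apex groups overlapped. Over the leaf libraries WT was 43.3-fold higher by counts, with a 95% counting interval of 7.38 to 1748 that covers counting error only. The edgeR adjusted p was 0.00529 for leaf and 0.0259 for the difference.

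For 2 loci neither tissue's effect was called, but the effects had opposite signs and their difference was called. Medtr4g089055 (chromosome 4) had 76.7, 92.3 and 92.5 CPM in WT leaf, 45.6, 58.5 and 64.3 CPM in *Mtsoc1a* leaf, 21.2, 19.96 and 21.7 CPM in WT apex and 34.3, 36.5 and 28.6 CPM in *Mtsoc1a* apex. Its log2 changes were -0.63 in leaf (edgeR adjusted p = 0.0608) and 0.66 in apex (edgeR adjusted p = 0.129), and the difference was -1.30 (SE 0.20, edgeR adjusted p = 0.0436). By CPM the gap between leaf and apex was thus smaller in the mutant for this locus. The authors' TPM was 23.4 in WT leaf, 13.9 in *Mtsoc1a* leaf, 11.4 in WT apex and 20.4 in *Mtsoc1a* apex. By TPM the mutant was thus higher in apex than in leaf.

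Medtr1g012520 (chromosome 1) had the same arrangement. Its levels were 111, 120 and 144 CPM in WT leaf, 76.5, 87.1 and 72.0 CPM in *Mtsoc1a* leaf, 39.6, 68.5 and 55.1 CPM in WT apex and 94.2, 126 and 104 CPM in *Mtsoc1a* apex. By CPM WT was higher in leaf than in apex, and in *Mtsoc1a* all 3 apex libraries lay above all 3 leaf libraries. The authors' TPM was closer between the WT tissues, at 26.1 in leaf and 22.9 in apex. In *Mtsoc1a* it was 15.1 in leaf and 49.1 in apex. The log2 changes were -0.67 in leaf (edgeR adjusted p = 0.124) and 0.99 in apex (edgeR adjusted p = 0.0857), and the difference was -1.66 (SE 0.26, edgeR adjusted p = 0.0436).

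None of the flowering genes measured by RT-qPCR in the study was called for the difference. Of these 21 genes 19 were tested by edgeR and 0 were called, with 2 calls by DESeq2 (10.5%, against 0.947% of all loci) and 4 genes at an unadjusted p under 0.05 (21.1%, against 8.8% of all loci). *MtFTc* and *MtTFL1a* were too low to be tested. *MtLFY*, *MtTFL1c*, *MtFDa* and *MtAP1b* had 0 counts in all 6 leaf libraries, so they carry no information on a leaf effect. The other 15 are described by role below, beginning with the FT genes.

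The FT genes are related to Arabidopsis *FT*, which encodes a mobile signal made in leaves. The paper treats 1 of them, *MtFTa2*, as a candidate flowering repressor. *MtFTa1* had 30, 15 and 48 counts in WT leaf, 28, 7 and 61 in *Mtsoc1a* leaf, 24, 47 and 9 in WT apex and 44, 20 and 84 in *Mtsoc1a* apex. Its groups overlapped in both tissues, and the difference was -0.96 with a 95% interval of -3.32 to 1.39, which spans several-fold differences in both directions. *MtFTb1* was mainly a leaf transcript, with 33, 74 and 30 counts in WT leaf and 7, 8 and 12 in WT apex. *Mtsoc1a* leaf held 53, 18 and 33 counts and *Mtsoc1a* apex 0, 2 and 3. The leaf groups overlapped, and the apex groups were separate at low counts. The log2 change was -0.41 in leaf and -2.29 in apex (edgeR adjusted p = 0.519), and the difference was 1.88 (SE 1.04). *MtFTb2* was also mainly a leaf transcript, with 48, 119 and 31 counts in WT leaf and 14, 5 and 3 in WT apex. *Mtsoc1a* leaf held 74, 30 and 76 counts and *Mtsoc1a* apex 36, 0 and 13. Its groups overlapped in both tissues, and the difference was -1.36 (SE 1.30). *MtFTa2* had at most 21 counts in any library.

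Among the MADS-box genes that act downstream at the apex, *MtSOC1b* and *MtFULc* were lower in mutant apex and not in mutant leaf, without passing the test. *MtSOC1b* had 169, 69 and 144 counts in WT apex and 14, 18 and 30 in *Mtsoc1a* apex, against 4, 17 and 9 in WT leaf and 7, 18 and 9 in *Mtsoc1a* leaf. The apex groups were separate and the leaf groups overlapped. The difference was 2.74 (95% interval 0.80 to 4.68, edgeR adjusted p = 0.388). *MtSOC1c*, its near neighbour by identifier, had 5.90, 3.28 and 5.02 CPM in WT apex and 2.27, 2.18 and 2.26 CPM in *Mtsoc1a* apex, with a difference of 0.86 (95% interval -0.32 to 2.03). *MtSOC1b* and *MtSOC1c* are similar genes, and reads may have been divided between them in the authors' counting.

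*MtFULc*, a *FRUITFULL* gene of the *AP1* family, had 47, 21 and 51 counts in WT apex and 0 in all 3 *Mtsoc1a* apex libraries. In leaf it had 3, 5 and 0 counts in WT and 4, 5 and 10 in *Mtsoc1a*. Against a floor of 3 counts over the mutant group, WT apex was at least 38.1-fold higher. The difference had an edgeR adjusted p of 0.121 and a DESeq2 adjusted p of 0.000384. *MtFULa* and *MtFULb* had differences of 1.36 (SE 1.05) and 0.29 (SE 0.60), and *MtFULb* had negative log2 changes in both tissues, -0.77 in leaf and -1.05 in apex.

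*MtAP1*, a gene of floral meristem identity, had 133, 17 and 140 counts in WT apex and 0 in all 3 mutant apex libraries. Its leaf libraries held 78, 64 and 90 counts in WT and 54, 15 and 61 in *Mtsoc1a*. WT apex was at least 92.9-fold higher than mutant apex at the floor of 3 counts over the group (edgeR adjusted p = 0.0466), while the leaf log2 change was -0.86 (edgeR adjusted p = 0.672). Among the 4 groups it was undetected at this depth in mutant apex alone. The difference had an edgeR adjusted p of 0.141, a DESeq2 adjusted p of 0.000153, and an edgeR adjusted p of 0.0193 once WT apex 2, the library with 17 counts, was left out.

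*MtAP3b* (Medtr5g021270), a B-class gene known from petals and stamens, was higher in all mutant libraries of a tissue than in its WT libraries. WT apex held 112, 78 and 110 counts and *Mtsoc1a* apex 216, 221 and 202. WT leaf held 415, 469 and 428 counts and *Mtsoc1a* leaf 570, 581 and 603. The shift was called in apex alone. The apex rise was 2.20-fold (edgeR adjusted p = 0.0443), the leaf log2 change was 0.43 (edgeR adjusted p = 0.306), and the difference was -0.71 (SE 0.25, edgeR adjusted p = 0.423). *MtSWN*, a Polycomb gene, had the narrowest interval of the tested genes, -0.65 to 0.07 around a difference of -0.29. *MtSVPc*, a MADS-box gene of the *SVP* family, had a difference of -0.14 (95% interval -1.51 to 1.23) and *MtBFT* one of 3.25 (95% interval -0.59 to 7.09).

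**Figure D3:**
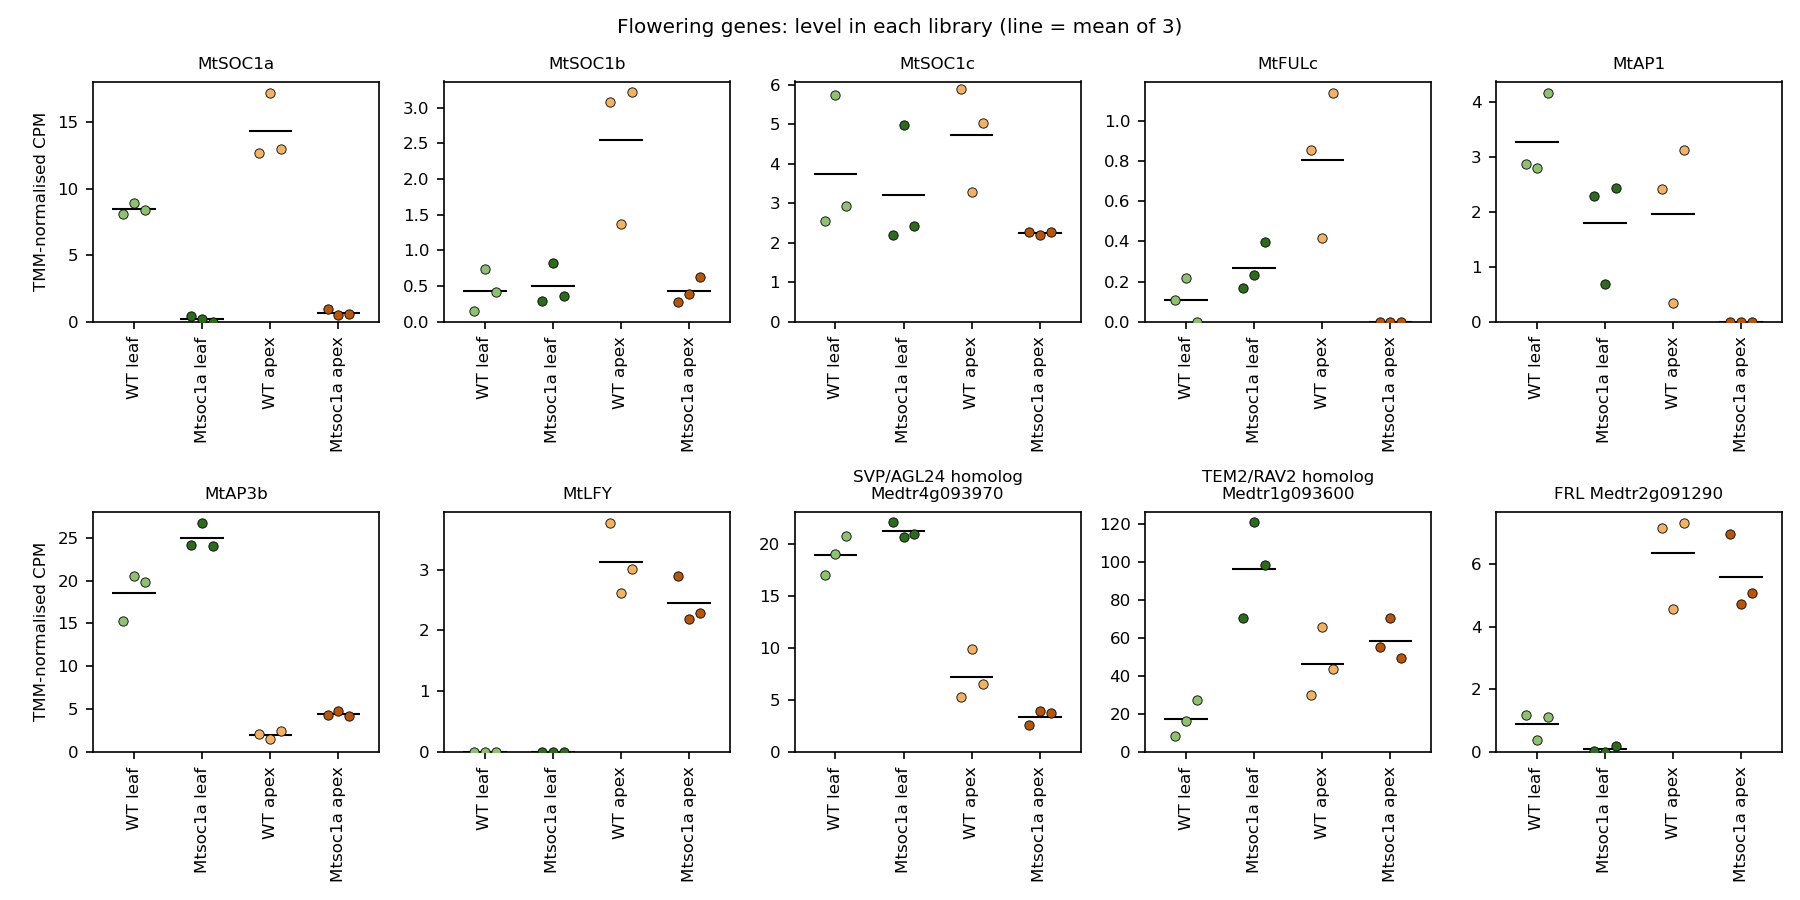
TMM-normalised CPM of 10 flowering genes in each library, on linear axes from 0, with a line at the mean of 3. *MtSOC1a* was low in both mutant tissues, *MtAP1* and *MtFULc* were at 0 in mutant apex but not in mutant leaf, and the *TEM2/RAV2* homolog had 8.36 to 27.6 CPM in WT leaf and 70.5 to 121 CPM in *Mtsoc1a* leaf.

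Over the wider list of 93 candidate flowering genes, 87 were tested by edgeR and 0 were called for the difference, with 16 at an unadjusted p under 0.05 (18.4%, against 8.8% of all loci) and 4 called by DESeq2 (4.60%, against 0.947%). Their median difference was 0.05, against 0.03 over all loci. Within a tissue, 3 were called in leaf (3.45%, against 0.465% of all loci) and 3 in apex (3.45%, against 0.0782%). They were *MtSOC1a*, Medtr2g091290 and Medtr8g105740 in leaf, and *MtSOC1a*, *MtAP1* and *MtAP3b* in apex. *MtSOC1a* carries the insertion, so its call in each tissue follows from the genotype. Both shares of 3.45% include it. By category the members at an unadjusted p under 0.05 were 5 of 30 MADS-box genes, 4 of 14 photoperiod genes, 2 of 8 vernalization genes, 2 of 8 carbohydrate genes, 2 of 17 gibberellin genes and 1 of 10 age-related genes. Among them the difference was positive for all 4 photoperiod genes, 4 of the 5 MADS-box genes, 1 of the 2 carbohydrate genes and the 1 age-related gene. It was positive for 0 of the 2 vernalization and 0 of the 2 gibberellin genes. Over all loci tested, whatever their p, 53.2% were positive. The positive share among all loci at an unadjusted p under 0.05 was not computed, so these direction counts have no matching share.

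The following genes were chosen after their values were seen. The *TEM2/RAV2* homolog Medtr1g093600, from a list of homologs of genes bound by Arabidopsis SOC1, belongs to a family that represses *FT* in Arabidopsis. It had 8.36, 16.1 and 27.6 CPM in WT leaf and 70.5, 121 and 98.4 CPM in *Mtsoc1a* leaf, with 30.2, 65.7 and 43.7 CPM in WT apex and 55.5, 70.5 and 49.7 CPM in *Mtsoc1a* apex. The leaf groups were separate and the apex groups overlapped. It rose 5.59-fold in leaf (edgeR adjusted p = 0.0216), and the difference was 2.15 (SE 0.55, edgeR adjusted p = 0.263, DESeq2 adjusted p = 0.00879). The second *TEM2/RAV2* homolog, Medtr5g053920, had log2 changes of 0.20 in leaf and 0.80 in apex and a difference of -0.60 (SE 0.35).

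The *FRIGIDA-LIKE* locus Medtr2g091290, a candidate flowering gene of the vernalization category, had 32, 9 and 24 counts in WT leaf and 1, 0 and 5 in *Mtsoc1a* leaf, and 394, 231 and 328 counts in WT apex and 346, 221 and 243 in *Mtsoc1a* apex. It fell 10.3-fold in leaf (edgeR adjusted p = 0.0443), with a difference of -3.18 (SE 0.83, edgeR adjusted p = 0.241). Medtr2g091370, another *FRIGIDA-LIKE* locus, had 7, 8 and 7 counts in WT leaf and 1, 0 and 0 in *Mtsoc1a* leaf. The counts are low, and whether reads were divided between these loci was not tested.

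The *SVP/AGL24* homolog Medtr4g093970 showed its shift in apex. It had 5.28, 9.91 and 6.52 CPM in WT apex and 2.54, 3.90 and 3.72 CPM in *Mtsoc1a* apex, with 16.9, 19.0 and 20.8 CPM in WT leaf and 22.1, 20.6 and 20.96 CPM in *Mtsoc1a* leaf. The apex groups were separate and the leaf groups overlapped. The difference was 1.26 (SE 0.31, edgeR adjusted p = 0.216, DESeq2 adjusted p = 0.0318). The trehalose phosphate synthase locus Medtr8g105740 rose 2.08-fold in leaf (edgeR adjusted p = 0.0211) and had a log2 change of 0.44 in apex, a difference of 0.61 (SE 0.26).

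Homologs of genes that Arabidopsis SOC1 binds gave 217 tested loci, with 0 edgeR calls for the difference, 2 DESeq2 calls (0.922%, against 0.947% of all loci) and 32 loci at an unadjusted p under 0.05 (14.7%, against 8.8%). The median difference was -0.17 against 0.03 over all loci, and 135 of the 217 were negative (62.2%, against 46.8% of all loci). In leaf 2 were called, both higher in *Mtsoc1a* (0.922%, against 0.287% of all loci), Medtr1g093600 and Medtr4g094610, the latter with a log2 change of 2.02 (edgeR adjusted p = 0.0324). The lowest p among them, a gene chosen after its values were seen, was that of the *CIPK12* homolog Medtr1g040875, which encodes a protein kinase of calcium signalling. It had 94.2, 99.2 and 98.7 CPM in WT leaf and 55.0, 56.2 and 60.3 CPM in *Mtsoc1a* leaf. Apex held 24.5, 26.9 and 22.1 CPM in WT and 25.5, 23.7 and 24.9 CPM in *Mtsoc1a*. Its log2 change was -0.77 in leaf, under the 2-fold threshold although its edgeR adjusted p was 0.00564, and the difference was -0.78 (SE 0.14, edgeR adjusted p = 0.0846).

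The study's GO analysis gave 4 lists of loci that were higher in the apex of the single mutant: carbohydrate metabolism, defense response, hydrogen peroxide catabolism and regulation of a protein phosphatase activity. They were chosen on the apex libraries used here, so their apex rise is fixed by the choice, which also pulls their difference toward negative values. Only their leaf effect is a separate measurement. Of 32 loci 31 were tested, 5 of which had at most 3 counts over the leaf libraries. Among the 26 with counts in both tissues the leaf change was positive for 18, with a median of 0.54, against 10948 positive of 22200 such loci overall. By edgeR 0 of the 31 were called in leaf, with 4 at an unadjusted p under 0.05 (12.9%, against 12.7% of all loci) and 0 called by DESeq2, and 1 was called both in apex and for the difference, the already described Medtr6g028090.

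**Figure D4:**
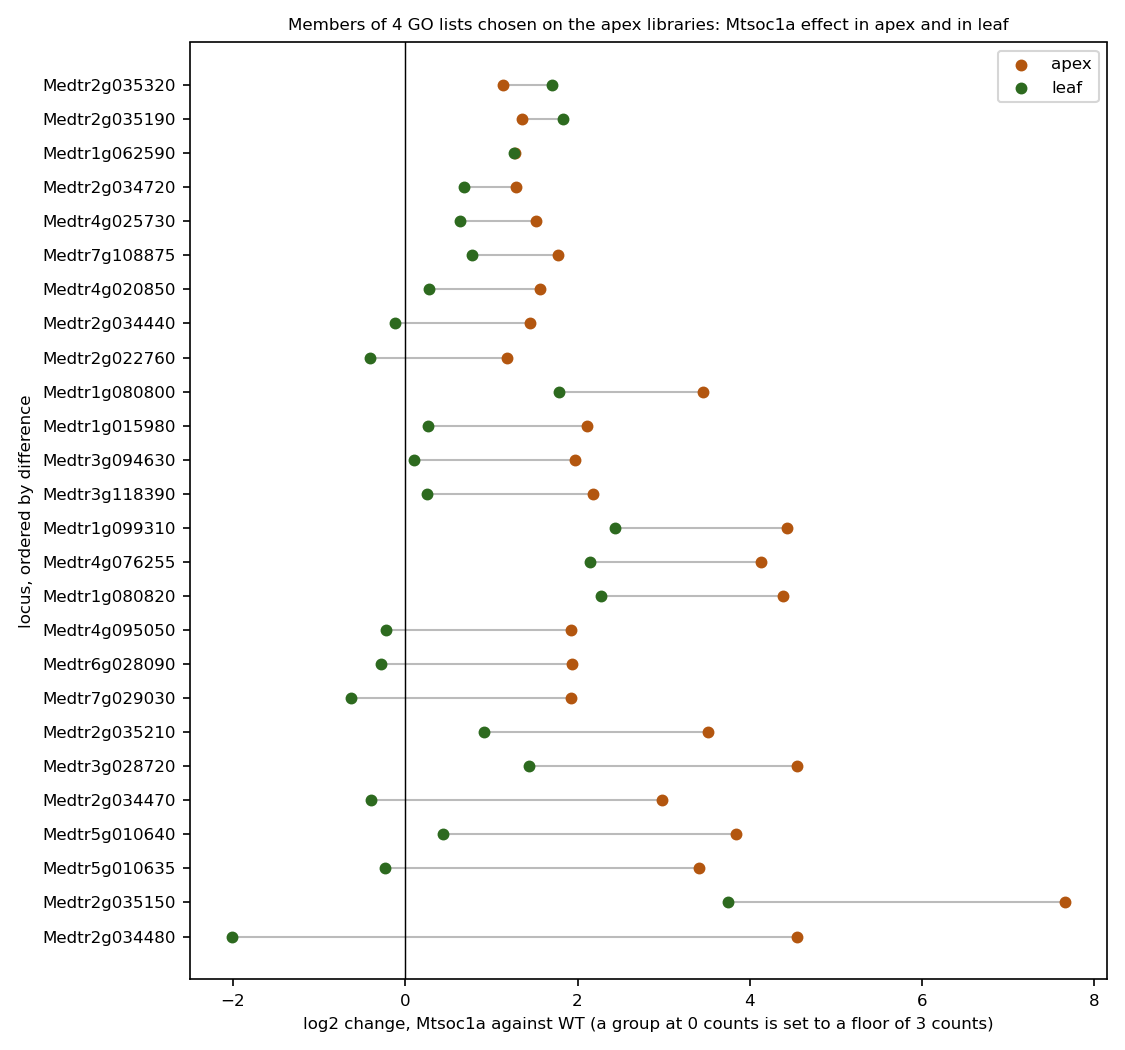
Log2 change of *Mtsoc1a* against WT in apex (orange) and leaf (green) for the 26 loci of the 4 lists with counts in both tissues, ordered by the difference, with a group at 0 counts set to a floor of 3. All 26 apex values are above 0 because the lists were chosen so, while the leaf values run from -2.02 to 3.74.

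The loci named next were chosen after their values were seen. The carbohydrate loci Medtr2g034440, Medtr2g034470 and Medtr2g034480, close by identifier, had leaf log2 changes of -0.12, -0.40 and -2.02 against 1.44, 2.98 and 4.55 in apex. Medtr2g034480 had 55, 43 and 51 counts in WT leaf, 18, 0 and 19 in *Mtsoc1a* leaf, 7, 31 and 2 in WT apex and 98, 438 and 356 in *Mtsoc1a* apex, with separate groups of opposite order in the tissues. Its edgeR adjusted p was 0.14 and its DESeq2 adjusted p 0.000153. Without WT apex 2 both it and Medtr2g034470 were called. Whether reads were divided among these neighbours by identifier was not tested. Medtr7g029030, of the hydrogen peroxide list, was a leaf transcript at 265 ± 63.5 CPM (SD, n = 3) in WT leaf and 1.06 ± 0.236 CPM in WT apex, and reached 4.02 ± 0.301 CPM in *Mtsoc1a* apex.

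Several defense loci were uneven among the leaf libraries of both genotypes. Medtr2g035150 had 629, 0 and 9 counts in *Mtsoc1a* leaf and 48, 3 and 0 in WT leaf, and 105, 292 and 1239 counts in *Mtsoc1a* apex and 5, 2 and 1 in WT apex. Medtr2g035320 had 1123, 79 and 99 counts in *Mtsoc1a* leaf and 241, 102 and 74 in WT leaf. In both loci *Mtsoc1a* leaf 1 carried most of the mutant leaf counts and WT leaf 1 most of the WT leaf counts, and the leaf groups overlapped. Medtr2g035210 was more even in mutant leaf, with 26, 6 and 4 counts in WT leaf and 19, 22 and 23 in *Mtsoc1a* leaf. It had 18, 39 and 11 counts in WT apex and 236, 148 and 363 in *Mtsoc1a* apex. Its difference was -2.59 (SE 0.85, edgeR adjusted p = 0.387).

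The other GO lists came from genes changed in the triple mutant apex against the WT apex libraries that also enter here, so they are not independent of the apex values. The photosynthesis list had a positive difference for 23 of 24 loci (95.8%, against 53.2% of all loci), with a median difference of 0.63, a median of 0.46 in leaf and -0.12 in apex. By edgeR 0 of the 24 were called for the difference and by DESeq2 0, with 4 at an unadjusted p under 0.05 (16.7%, against 8.8% of all loci). The 11 lists of loci lower in the triple mutant apex held 114 tested loci, of which edgeR called 0 and DESeq2 2 (1.75%, against 0.947%), with 18 at an unadjusted p under 0.05 (15.8%, against 8.8%). Their median differences ran from -0.93 for chitin catabolism (6 loci) to 0.15 for metal ion transport (23 loci), and were negative for 9 of the 11 lists. Loci of one term share libraries and often sequence and are not independent of each other.

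A few loci past the test in 1 tissue but not for the difference complete the picture, also chosen after their values were seen. Medtr6g034905, close by identifier to Medtr6g034920 and placed by the study's annotation under cell wall organization, had 73, 57 and 26 counts in WT apex and 1276, 1547 and 2615 in *Mtsoc1a* apex, and at most 10 counts in any leaf library. It rose 36.9-fold in apex (edgeR adjusted p = 0.00222), and the difference had an edgeR adjusted p of 0.19 with leaf near the limit of detection. Unlike it, Medtr6g034920 was abundant in leaf. The next locus by identifier, Medtr6g034930, passed in neither tissue (edgeR adjusted p = 0.394 in apex and 0.521 in leaf). It had 1, 2 and 4 counts in WT apex and 42, 92 and 135 in *Mtsoc1a* apex. In leaf it had 8, 1 and 0 counts in WT and 53, 0 and 0 in *Mtsoc1a*. Whether reads were divided among these 3 loci was not tested.

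Medtr3g467270 was lower in mutant apex, at 832, 339 and 605 counts in WT and 9, 26 and 60 in *Mtsoc1a*, and had 117, 125 and 62 counts in WT leaf and 84, 98 and 155 in *Mtsoc1a* leaf. Its difference was 4.32 (SE 0.74, edgeR adjusted p = 0.0846). Medtr0229s0020 had 132, 127 and 168 counts in WT apex and 0 counts in the other 9 libraries, so WT apex was at least 136.7-fold higher than mutant apex and no leaf effect could be measured. On the leaf side, Medtr3g064350 had 39, 42 and 76 counts in WT leaf and 464, 950 and 1265 in *Mtsoc1a* leaf, and 899, 2400 and 931 in WT apex and 1290, 1469 and 1547 in *Mtsoc1a* apex. It rose 16.9-fold in leaf (edgeR adjusted p = 0.00801), with a difference of 4.00 (SE 0.67, edgeR adjusted p = 0.0868) that was called without WT apex 2, the library with 2400 counts. Medtr6g090460 behaved alike, with 57, 45 and 96 counts in WT leaf, 715, 877 and 973 in *Mtsoc1a* leaf, 256, 816 and 239 in WT apex and 437, 408 and 498 in *Mtsoc1a* apex, a difference of 3.5998 (SE 0.63, edgeR adjusted p = 0.092), and was also called without WT apex 2.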

How the data were processed

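The authors made strand-specific polyA libraries, sequenced them as 150 bp paired ends, trimmed reads with fastp and quantified them on transcripts of the Mt4.0v2 annotation using Salmon 0.8.2, and the submitters' notes also name DESeq2 1.24.0. The authors deposited Salmon's estimated counts (expected counts) for 57124 transcripts in every library. They also deposited TPM as 1 value per group, which was printed for a few loci and not tested.

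Transcripts were summed to 50021 loci and rounded. The 12 libraries entered 1 fit in R 4.3.3 with edgeR 4.0.16: TMM library sizes, filterByExpr at a minimum count of 10 (23024 loci kept) and a robust quasi-likelihood test of (*Mtsoc1a* leaf - WT leaf) - (*Mtsoc1a* apex - WT apex), and of each tissue. TMM factors were 0.607 to 0.698 in leaf and 1.43 to 1.56 in apex. CPM were computed on TMM-scaled library sizes. Calls needed a change of at least 2-fold and an adjusted p (Benjamini-Hochberg) of 0.05 or less. Groups of 3 libraries limit the precision. p-values measure the spread between libraries. Folds against a group with no counts used 3 summed counts in its place; 95% counting intervals cover counting error only.

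Loci were named when measured by RT-qPCR in the study, when called for the difference (up to 12 of lowest p in each direction), or when called members of a list, and otherwise as stated; a place for loci called in opposite directions in both tissues found 0. Members and lists were chosen with earlier results of these data known. As 0 identifiers matched the reference gene table, no product names or sequences were used. Alternatives were DESeq2 1.42.0, its size factors, limma-voom (limma 3.58.1), other filters, no fold threshold, transcripts, replicate blocks, other sets of libraries and each library left out.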

Additional observations from a re-analysis of the deposited data

Results flagged for a closer look

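The 14 loci whose *Mtsoc1a* effect differed between leaf and apex by a test of the difference itself are listed here by that log2 difference, leaf minus apex. Negative differences, in order of p, were those of Medtr6g028090 (-2.22), Medtr6g034920 (-3.69), Medtr3g479620 (-1.95), Medtr5g071010 (-5.04, a fitted value with 1 count in the mutant leaf group), Medtr4g089055 (-1.30) and Medtr1g012520 (-1.66). Positive differences were those of Medtr7g102450 (3.29), Medtr1g015650 (3.82), Medtr2g019600 (1.29), Medtr2g013140 (2.98), Medtr4g064967 (1.62), Medtr1g090693 (1.39), Medtr8g100065 (1.97) and Medtr2g022460 (2.38). Groups of 3 libraries are too small for a test of outlying libraries, and none was run.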

How the results depend on the processing

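All 14 loci kept the direction of their difference under every alternative run, and 127 of 294 values for them no longer passed the threshold. The number of called differences, 14, became 218 with DESeq2, 28 with all 15 libraries in the fit, 9 with transcripts in place of loci and 0 with limma-voom (smallest adjusted p 0.0501). Leaving out 1 library gave 1 to 39. For the leaf effect the count of 107 became 375 with DESeq2, 179 without the fold threshold, 71 with transcripts and 47 (38 higher, 9 lower) with the 6 leaf libraries alone, and 39 (without *Mtsoc1a* leaf 3) to 174 (without *Mtsoc1a* leaf 1) with 1 library left out, and was 46 without WT leaf 1 and 61 without WT leaf 3. For the apex effect the count of 18 became 166 with DESeq2 and 2 with transcripts, and was 15 with the 6 apex libraries alone, of which 3 were among the 18, and 5 (without *Mtsoc1a* leaf 3 or WT apex 1) to 31 (without WT apex 2) with 1 library left out, and was 6 without WT apex 3 or *Mtsoc1a* apex 2, 7 without WT leaf 1 and 11 without WT leaf 3. Leaving out a library reduces the data behind each value, and the cause of the other shifts was not tested. With transcripts 8 of the 14 loci lost the call, 6 of them loci with 1 transcript, whose counts are the same at both levels.

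Replicate numbers were not taken to pair the samples, since no label says what a number shares and not every pair correlated above 0.1. Deviations of same-numbered libraries correlated at -0.15 to 0.00 between WT leaf and WT apex, at -0.04 to 0.06 between the *Mtsoc1a* tissues, at -0.20 to 0.10 between genotypes in apex and at 0.06 to 0.29 between genotypes in leaf, where each library correlated best with its own number. With a replicate block the called differences numbered 8 and the apex effects 5, the leaf effects 93, and with a replicate block within genotype the called differences numbered 4. Of the RT-qPCR genes, 2 gained a call in an alternative: *MtFULc* with DESeq2, and *MtAP1* with DESeq2 and without WT apex 2. Loci with few counts in leaf gave imprecise leaf effects.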
